A study of Mus musculus with 4 samples.

Results

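The expression of 10 genes of lipid efflux and of the PPAR and LXR pathways was examined across 4 RNA libraries of bone marrow-derived macrophages. The genes were *Abca1*, *Abcg1*, *Apoe*, *Lpl*, *Fabp4*, *Fabp5*, *Plin2*, *Nr1h3*, *Pparg* and *Mylip*. They were chosen by symbol, and all 10 were listed among the 16375 genes of the deposited expression table. All 10 also passed the filter on low values that left 11250 genes for comparison, namely a mean of at least 100 fragments and a value above 0 in all 4 libraries.

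Macrophages were generated with M-CSF from bone marrow cells of WT mice and of *lncLy6c* knockout (LNCKO) mice, which carry a CRISPR-Cas9 deletion of this long noncoding RNA in every cell on a C57BL/6J background. Cells of each genotype were cultured with 500 µM butyrate for 24 h or without it, which gave 4 groups with 1 library each. Where 4 values are listed in a row, they stand for WT without butyrate (WT control), WT with it (WT butyrate), LNCKO without it (LNCKO control) and LNCKO with it (LNCKO butyrate), always in this order. The methods give an age of some weeks and either sex for the study's C57BL/6 mice without tying them to these libraries, and whether cells of several mice were pooled was not given in the sources used here. With 1 library per group, no difference within a genotype or within a treatment could be tested, no test pooled across them was run, and no p-value is given. Each interval below is a 95% interval for counting error only, since fragments were counted without molecular identifiers and no biological spread could be measured. The intervals are exact, except those of differences between log2 ratios, which are normal approximations.

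Macrophages take up lipoproteins and dying cells, and must then store, burn or export the lipid they have gained. LXR, of which *Nr1h3* encodes the alpha form, is switched on by oxidised cholesterol and induces genes that export cholesterol, whereas PPAR gamma, encoded by *Pparg*, is switched on by fatty acids and induces genes of fatty acid uptake and storage. Both receptors bind DNA together with RXR, at direct repeats of the hexamer AGGTCA that are spaced by 4 bases for LXR and by 1 base for PPAR.

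Promoters of 3 of the genes are shown. That of *Abca1* matches the repeat spaced by 4 as closely as any member's, that of *Plin2* is the closest match to the repeat spaced by 1, and that of *Pparg* holds the exact hexamer next to its start site. The windows reach from 250 bases before to 50 bases after a RefSeq start site on GRCm38.p6, are written in the direction of the gene, and carry the best match in capitals.

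Abca1, minus strand, chr4:53159846-53160145: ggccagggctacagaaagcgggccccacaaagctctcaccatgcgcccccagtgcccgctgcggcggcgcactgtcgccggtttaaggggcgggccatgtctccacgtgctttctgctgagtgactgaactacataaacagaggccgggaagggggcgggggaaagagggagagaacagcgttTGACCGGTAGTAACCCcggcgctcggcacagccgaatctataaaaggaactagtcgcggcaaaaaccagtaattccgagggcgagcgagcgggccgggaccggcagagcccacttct
Plin2, minus strand, chr4:86670010-86670309: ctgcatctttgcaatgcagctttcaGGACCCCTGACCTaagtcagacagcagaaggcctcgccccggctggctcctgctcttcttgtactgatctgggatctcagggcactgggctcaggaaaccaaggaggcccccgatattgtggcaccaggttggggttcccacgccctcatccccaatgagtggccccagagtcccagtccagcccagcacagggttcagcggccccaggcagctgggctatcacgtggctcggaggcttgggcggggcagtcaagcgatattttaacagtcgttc
Pparg, plus strand, chr6:115362099-115362398: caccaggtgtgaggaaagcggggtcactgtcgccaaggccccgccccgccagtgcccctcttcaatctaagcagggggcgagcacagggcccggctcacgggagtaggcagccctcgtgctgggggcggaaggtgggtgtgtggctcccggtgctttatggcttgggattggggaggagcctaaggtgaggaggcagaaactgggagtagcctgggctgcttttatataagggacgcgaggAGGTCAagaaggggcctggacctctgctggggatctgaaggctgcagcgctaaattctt

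In the *Abca1* promoter, the capitals mark the reverse complement of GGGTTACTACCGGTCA, which matches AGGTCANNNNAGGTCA, searched on both strands, with 3 mismatches at its 12 fixed bases. The window lies 51 bases before the start site. Up to 3 mismatches to this repeat were present in 21.9% of all 32851 promoters. In *Plin2*, the capitals mark the reverse complement of AGGTCAGGGGTCC, which matches AGGTCANAGGTCA with 2 mismatches and lies 212 bases before the start site. Up to 2 mismatches to this repeat were present in 3.86% of all promoters. The capitals in *Pparg* mark an exact hexamer 3 bases before the start site, and an exact hexamer on either strand was present in 16.3% of all promoters. RefSeq windows matched 6 of the 10 genes, with 11 start sites in all, and 3 of these 11 windows, 1 of *Plin2* and 2 of *Pparg*, held an exact hexamer. An exact repeat of either kind was in none of the 11 windows, and was present in 0.0152% of all promoters for the spacing of 4 and in 0.0396% for the spacing of 1. The windows of *Abcg1*, *Fabp4*, *Fabp5* and *Lpl* were not analysed here.

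The libraries held between 53363944 and 65521713 fragments, recovered from the deposited FPKM, and the FPKM of each of the 10 genes gave whole fragments in every library. All 10 macrophage markers examined were listed and their sum ranged from 9893 to 20710 fragments per 1000000, a range set mainly by *Lyz2*. Neutrophil markers summed to 5795 to 7867 and B cell markers to 1172 to 1478 fragments per 1000000, so these genes were also well represented. The table names no gene *lncLy6c*, and the loss of the targeted RNA was not analysed here. Y-linked genes summed to 2.23 to 3.60 fragments per 1000000 in the WT libraries and to 288 to 308 in the LNCKO libraries. Genotype therefore cannot be told apart from the sex of the donors in any LNCKO against WT value.

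Together the 10 genes took 0.866% (0.864 to 0.869) of all fragments in WT without butyrate and 1.08% (1.07 to 1.08) with it. In LNCKO these shares were 0.813% (0.810 to 0.815) and 0.974% (0.972 to 0.977). *Apoe* alone took 0.661%, 0.854%, 0.587% and 0.742% of the fragments. It was the third most abundant of 11212 genes when recovered fragments were divided by exon length, with a mean level over the 4 libraries of 3868 fragments per kilobase of exons per 1000000 fragments. *Fabp5* and *Plin2* followed with 424 and 402 on the same scale, and their places were exchanged in WT butyrate. *Lpl* stood at 90.3, and *Abcg1*, *Abca1*, *Fabp4* and *Mylip* lay close together between 33.0 and 23.8. *Nr1h3* at 10.7 and *Pparg* at 4.15 were the lowest of the 10 in every library. The order of neighbours differed among the libraries, with 3 different orders over 4 libraries, in which *Fabp5* and *Plin2* changed places and *Fabp4* moved among *Abcg1*, *Abca1* and *Mylip*, which kept this order in every library. With all annotated exons as the length, a choice made after seeing the data, 5 of the 10 genes changed place, *Fabp4* from 7 to 9 and *Fabp5* from 2 to 3, while *Plin2*, *Nr1h3* and *Mylip* moved up by 1. The levels then were 5.50 for *Fabp4*, 117 for *Fabp5*, 35.5 for *Lpl* and 216 for *Plin2*.

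**Figure D1:**
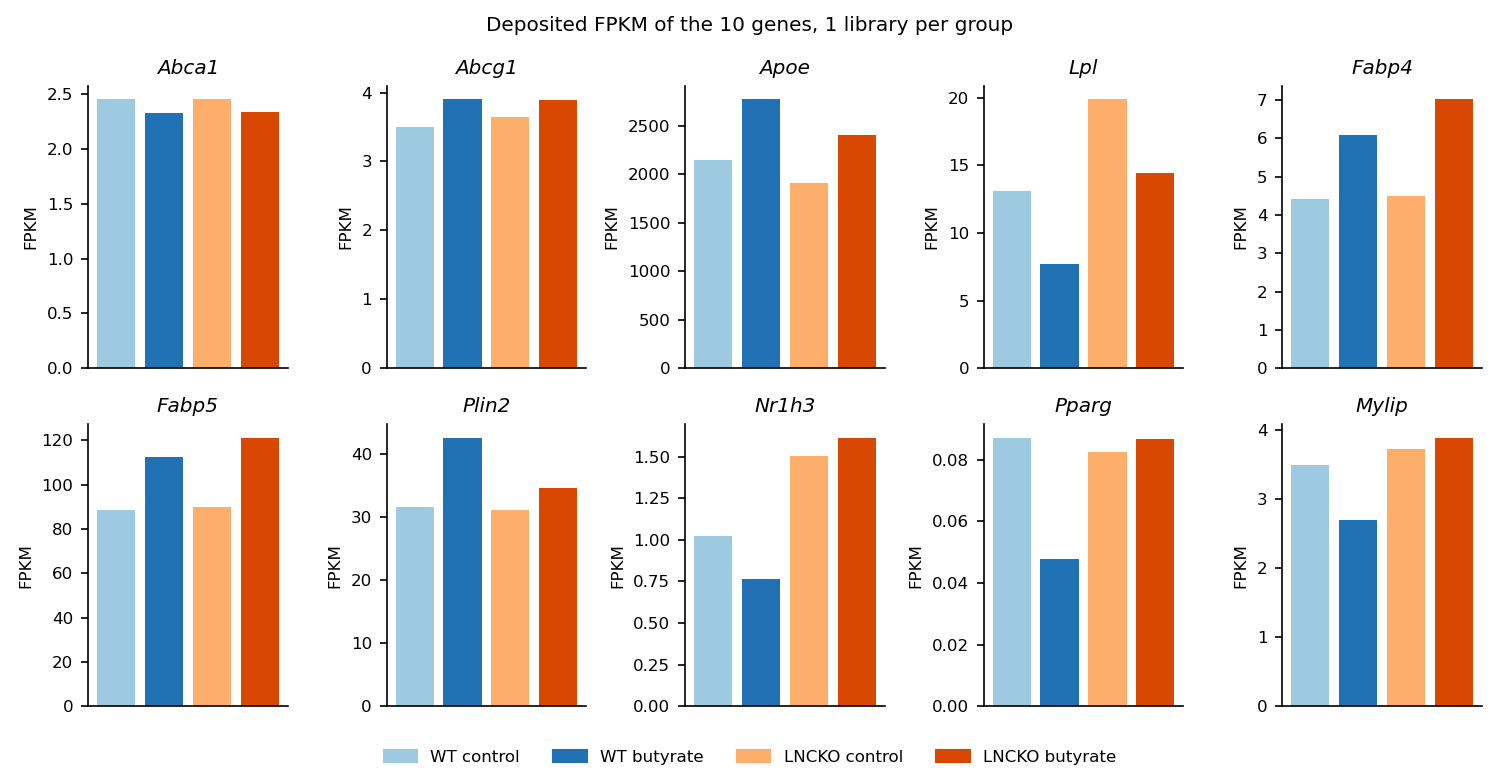
Deposited FPKM of each of the 10 genes (vertical axes, linear from 0, with a scale of its own for each gene) in the 4 libraries, 1 bar per library and no error bars because each group has 1 library. Bars of Abca1 are nearly level, those of Apoe, Fabp4, Fabp5 and Plin2 are higher with butyrate in both genotypes, and WT butyrate is the lowest bar for Lpl, Nr1h3, Pparg and Mylip.

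The response to butyrate was compared within each genotype as the log2 ratio of FPKM in butyrate to FPKM in control. At least 1.5-fold was taken as a call. In WT, 2 of the 10 genes (*Lpl* and *Pparg*) were at least 1.5-fold lower, against 2.92% of all genes tested, and 0 of 10 were at least 1.5-fold higher, against 3.33%. Over all genes, 375 were called higher and 328 lower in WT, and the split was 457 and 262 with libraries scaled by the median ratio and 318 and 434 with FPKM rescaled to the same sum. In LNCKO, 1 of the 10 genes (*Fabp4*) was at least 1.5-fold higher, against 1.64% of all genes, and 0 of 10 were at least 1.5-fold lower, against 0.898%. The median log2 ratio of the 10 genes was 0.04 in WT, where that of all genes was -0.06, and 0.10 in LNCKO, where that of all genes was -0.02. Butyrate was associated with the same sign of change in both genotypes for 7 of the 10 genes, and 56.0% of all genes tested had the same sign in both.

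The cholesterol pumps came first. *Abca1* (ENSMUSG00000015243) encodes the transporter that loads cholesterol and phospholipid onto lipid-poor apolipoproteins. In WT it had 2.45 FPKM without and 2.33 with butyrate, and in LNCKO 2.45 and 2.34. The 4 values differed by 1.05-fold at most, and both butyrate libraries lay slightly below both controls. The log2 ratio of butyrate to control was -0.07 in both genotypes, with intervals of -0.10 to -0.04. With libraries scaled by the median ratio it was -0.02 in WT. LNCKO and WT did not differ beyond counting error, at 0.00 (-0.03 to 0.03) without and 0.00 (-0.03 to 0.03) with butyrate. The value with butyrate depended on the scaling. It was -0.05 with libraries scaled by the median ratio and 0.05 with FPKM rescaled to the same sum, both outside its interval.

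*Abcg1* (ENSMUSG00000024030) encodes the pump that passes cholesterol on to mature HDL. The gene was read at 3.501 FPKM without and 3.90 with butyrate in WT, and at 3.65 and 3.89 in LNCKO. Both butyrate libraries were above both controls by a small margin. The log2 ratio was 0.16 (0.12 to 0.19) in WT and 0.09 (0.06 to 0.13) in LNCKO, which 18.5% and 19.1% of all genes exceeded. An rRNA gene, Gm25447, lies inside *Abcg1* on the same strand, and some of the fragments may belong to it.

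*Apoe* (ENSMUSG00000002985), an acceptor of the exported cholesterol that macrophages secrete in large amounts, had 2146 FPKM in WT cells without butyrate and 2772 with it, and 1907 and 2408 in LNCKO cells. Values were higher with butyrate in both genotypes and lower in LNCKO in both treatments, so that LNCKO butyrate still exceeded WT control. The increase with butyrate was 1.29-fold in WT and 1.26-fold in LNCKO, or 0.37 (0.36 to 0.38) and 0.34 (0.33 to 0.34) on the log2 scale. The log2 ratio of LNCKO to WT was -0.17 (-0.18 to -0.16) without butyrate and -0.20 (-0.21 to -0.20) with it. None of these differences reached 1.5-fold.

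*Apoe* lies on chromosome 7 at 19696109 to 19699188 of GRCm38, on the minus strand, in a cluster with other apolipoprotein genes. Its neighbour *Apoc1*, 3449 bases away, had 178, 512, 113 and 210 fragments. That gene encodes a small lipoprotein component and had the order of libraries of *Apoe*, with log2 ratios to control of 1.45 in WT and 0.60 in LNCKO. On the other side, *Tomm40*, 2125 bases away and encoding a mitochondrial import channel, had 1936, 2062, 2091 and 1933 fragments. Its log2 ratios were 0.02 in WT and -0.41 in LNCKO. These neighbours were looked up after the values of *Apoe* had been seen.

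The next genes handle fatty acids and triglyceride. *Lpl* (ENSMUSG00000015568), the secreted lipase that releases fatty acids from lipoprotein triglyceride, had 13.1 FPKM in WT, 7.72 in WT with butyrate, 19.9 in LNCKO and 14.4 in LNCKO with butyrate. WT butyrate was lowest, LNCKO control was highest, and LNCKO butyrate was close to WT control. Butyrate libraries were lower in both genotypes, by 1.70-fold in WT (log2 ratio -0.77, -0.80 to -0.73) and by 1.38-fold in LNCKO (-0.47, -0.49 to -0.44). In WT 1.51% and in LNCKO 1.63% of all genes lay below *Lpl*. The change was larger in WT, with a difference of -0.30 (-0.34 to -0.26) between the log2 ratios of the genotypes, which was not tested.

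Of 7 cofactors and inhibitors of this lipase, 4 were tested, and none of these was past 1.5-fold with butyrate in either genotype. *Apoc2*, which activates the lipase and was the most abundant of them per exon length, had 17.9, 23.3, 16.7 and 20.04 FPKM. It was higher with butyrate by 0.38 in WT and 0.26 in LNCKO on the log2 scale, opposite in sign to *Lpl*. *Gpihbp1*, named for its role as the protein that anchors the lipase on capillary endothelium, had 0, 0, 4 and 4 fragments.

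*Fabp4* (ENSMUSG00000062515), a fatty acid carrier induced by PPAR gamma in fat cells and macrophages, was measured at 4.42 FPKM in WT and 4.50 in LNCKO without butyrate, and at 6.08 and 7.02 with it. The controls were nearly equal and both butyrate libraries lay above them. The log2 ratio was 0.46 (0.35 to 0.57) in WT and 0.64 (0.53 to 0.75) in LNCKO, or 1.38-fold and 1.56-fold. The value for LNCKO was the only one of the 10 genes past 1.5-fold upward with butyrate, and its interval reached below that size.

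*Fabp5* (ENSMUSG00000027533), a related carrier, had 88.6, 112, 89.9 and 121 FPKM. The order of the libraries was that of *Fabp4*. Increases with butyrate were 1.27-fold in WT and 1.35-fold in LNCKO, and 7.85% and 2.81% of all genes had a higher ratio. Both genes lie on chromosome 3, 187481 bases apart, and *Myef2l*, the gene listed between them and also looked up afterwards, had log2 ratios of -0.27 in WT and -0.14 in LNCKO. Of the 100-base words of *Fabp5* coding transcripts, 9.01% also occur in the pseudogenes Gm14328 and Gm6166, and 0% of those of *Fabp4* occur in another gene.

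*Plin2* (ENSMUSG00000028494) encodes a coat protein of lipid droplets. Without butyrate it had 31.5 FPKM in WT and 31.1 in LNCKO, and with butyrate 42.6 and 34.7. The controls were equal within 1.01-fold, and WT butyrate stood above the other 3 libraries. The increase was 1.35-fold in WT and 1.11-fold in LNCKO. The log2 ratios, 0.43 (0.42 to 0.45) and 0.16 (0.14 to 0.17), differed by 0.28 (0.25 to 0.31) between the genotypes, and no test of this difference was possible.

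**Figure D2:**
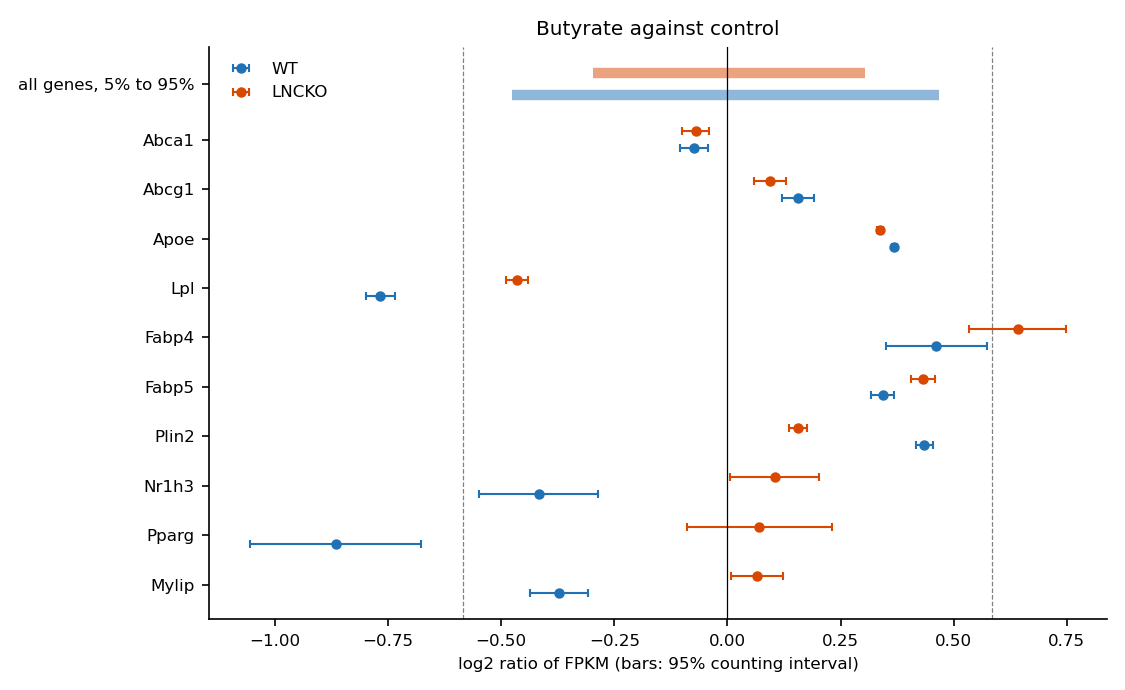
Log2 ratio of FPKM in butyrate to control (horizontal axis) for each of the 10 genes in WT (blue) and LNCKO (orange), with 95% counting intervals. Dashed lines mark 1.5-fold and the thick bars at the top span the 5th to the 95th percentile of all 11250 genes. Lpl and Pparg in WT lie beyond the lower dashed line, Fabp4 in LNCKO beyond the upper one, and Nr1h3, Pparg and Mylip are left of 0 in WT and right of 0 in LNCKO.

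Of the nuclear receptors, 1 of 2 was called lower with butyrate in WT, against 2.92% of all genes, and 0 of 2 in LNCKO, against 0.898%. *Nr1h3* (ENSMUSG00000002108), which encodes LXR alpha, had 1.02 FPKM in WT and 1.502 in LNCKO without butyrate, and 0.765 and 1.61 with it. Both LNCKO libraries were above both WT libraries. With butyrate the log2 ratio was -0.42 (-0.55 to -0.29) in WT, 1.33-fold lower, and 0.10 (0.01 to 0.20) in LNCKO. The fragments behind these values numbered 850 to 1986 per library, and on the same strand the gene overlaps Gm13783, to which some of them may belong.

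*Pparg* (ENSMUSG00000000440) was the least expressed of the genes, with 637, 367, 571 and 736 fragments. These gave 0.0873, 0.0479, 0.0827 and 0.0868 FPKM, low because its span of 129449 bases, introns included, was the length used. WT butyrate stood apart from the other 3 libraries, which differed by at most 1.06-fold. In WT, *Pparg* was 1.82-fold lower with butyrate (log2 ratio -0.87, -1.05 to -0.68), whereas in LNCKO the ratio was 1.05-fold (0.07, -0.09 to 0.23). This was the lowest ratio of the 10 genes in WT, and 1.07% of all genes lay below it. An antisense gene, Gm44079, lies inside *Pparg*, and whether the counting used strand was not given in the sources used here. With a pseudocount of 0.1 FPKM the WT log2 ratio was -0.34, short of the call.

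*Mylip* (ENSMUSG00000038175), an LXR target that encodes a ubiquitin ligase, had 3.499 FPKM in WT control and 2.70 in WT butyrate, whereas the LNCKO libraries had 3.72 and 3.90. Only WT butyrate stood apart, below the other 3. The log2 ratio with butyrate was -0.37 (-0.44 to -0.31) in WT and 0.07 (0.01 to 0.12) in LNCKO.

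B cell markers were also lower in WT butyrate than in WT control, for 7 of 7 markers with a median log2 ratio of -0.25, where 60.8% of all genes were lower and 1 of the 7 (*Vpreb3*) was past 1.5-fold, and their sum was 1415 and 1172 fragments per 1000000 in these libraries. In LNCKO their median was 0.00, with sums of 1460 in control and 1478 in butyrate. The part of these cells in the WT values of *Nr1h3*, *Pparg*, *Lpl* and *Mylip* was not tested. In such bulk RNA, fewer cells of a type and less RNA per cell cannot be told apart. Fat cells, which express *Fabp4*, *Lpl*, *Plin2* and *Pparg* strongly, were barely represented. The 4 listed of 6 fat cell markers summed to 0.124, 0.625, 0.150 and 0.443 fragments per 1000000, higher with butyrate in both genotypes as *Fabp4* was. Behind these sums were 0, 0, 3 and 4 fragments of *Adipoq*, 0, 6, 0 and 0 of *Plin1*, 7, 26, 5 and 23 of *Retn* and 0, 5, 0 and 2 of *Cfd*. Of 3 endothelial markers tested, *Cdh5*, with 306, 508, 219 and 489 fragments, was higher with butyrate, by 1.58-fold in WT and 1.82-fold in LNCKO. The other tested ones did not follow it, with log2 ratios in WT and LNCKO of -0.06 and -0.04 for *Pecam1* and -0.47 and 0.03 for *Kdr*. The sum of the endothelial markers was 159.1, 145.8, 164.2 and 164.5 fragments per 1000000. Of 7 stromal markers, 3 were at least 1.5-fold higher with butyrate in WT and 5 in LNCKO, against 3.33% and 1.64% of all genes. Their median log2 ratios were 0.33 and 1.01. In WT, 2 of the 7 were lower with butyrate, *Col1a1* at -0.35 and *Col1a2* at -0.38. The sum of the stromal markers in WT was 235 fragments per 1000000 without butyrate and 219 with it, and in LNCKO it was 70.0 and 144. All 3 erythroid markers tested were past 1.5-fold higher in LNCKO, where 1.64% of all genes were, with a median of 1.49. None was in WT. Of 10 macrophage markers, 7 were higher with butyrate in WT and 5 in LNCKO, where 39.2% and 42.1% of all genes were. *Lyz2* was 1.46-fold higher in WT and 1.85-fold lower in LNCKO, the only call among them. The macrophage sum was 15730, 20710, 13620 and 9893 fragments per 1000000. Of 8 neutrophil markers, 5 were higher in WT and 2 in LNCKO, and *Elane* was the only call, 1.60-fold higher in WT. Their sum was 6850, 7867, 6228 and 5795. The part of these cells in the butyrate values of the 10 genes was not tested.

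Loss of *lncLy6c* was then examined by comparing LNCKO with WT in each treatment. Without butyrate, 1 of the 10 genes (*Lpl*) was at least 1.5-fold higher in LNCKO, against 1.58% of all genes, and 0 of 10 were at least 1.5-fold lower, against 1.9%. With butyrate, 3 of the 10 genes (*Lpl*, *Nr1h3* and *Pparg*) were at least 1.5-fold higher, against 3.32% of all genes, and 0 of 10 were at least 1.5-fold lower, against 3.17%. The median log2 ratio of the 10 genes was 0.02 without and 0.16 with butyrate, where those of all genes were 0.02 and 0.05. The comparisons with and without butyrate share no library, whereas each shares its libraries with the butyrate comparisons above.

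*Lpl* was higher in LNCKO in both treatments, by 1.51-fold (log2 ratio 0.60, 0.57 to 0.62) without and 1.87-fold (0.90, 0.87 to 0.93) with butyrate. The first of these lay at the limit of the call, and the log2 ratio was 0.58, below the limit, once the libraries were scaled by the median ratio of all genes. *Nr1h3* was 1.47-fold higher without butyrate (0.56, 0.44 to 0.67), just below the call, and 2.11-fold higher with it (1.08, 0.96 to 1.20), where 99.2% of all genes lay below it. *Pparg* was close to level without butyrate (-0.08, -0.24 to 0.09) and 1.81-fold higher in the butyrate libraries (0.86, 0.67 to 1.04). With a pseudocount of 0.1 FPKM, the ratio of *Pparg* with butyrate was 0.34, and with a pseudocount of 1 FPKM that of *Nr1h3* was 0.57, both short of the call.

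*Mylip* differed by 0.09 (0.03 to 0.15) without butyrate and by 0.53 (0.47 to 0.59), or 1.44-fold, with it. *Fabp4* and *Fabp5* were within 1.02-fold of WT without butyrate, and 1.15-fold and 1.08-fold above it with butyrate. *Plin2* was equal within 1.01-fold without butyrate and 1.23-fold lower in LNCKO with it (-0.30, -0.32 to -0.28). Thus 7 of the 10 genes had a higher LNCKO to WT ratio with butyrate than without it, as had 56.6% of all genes, and 3 (*Abcg1*, *Apoe* and *Plin2*) had a lower one. *Abca1* was counted among the 7 with a difference within counting error, and *Abca1* and *Apoe* each changed side under another scaling of the libraries.

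**Figure D3:**
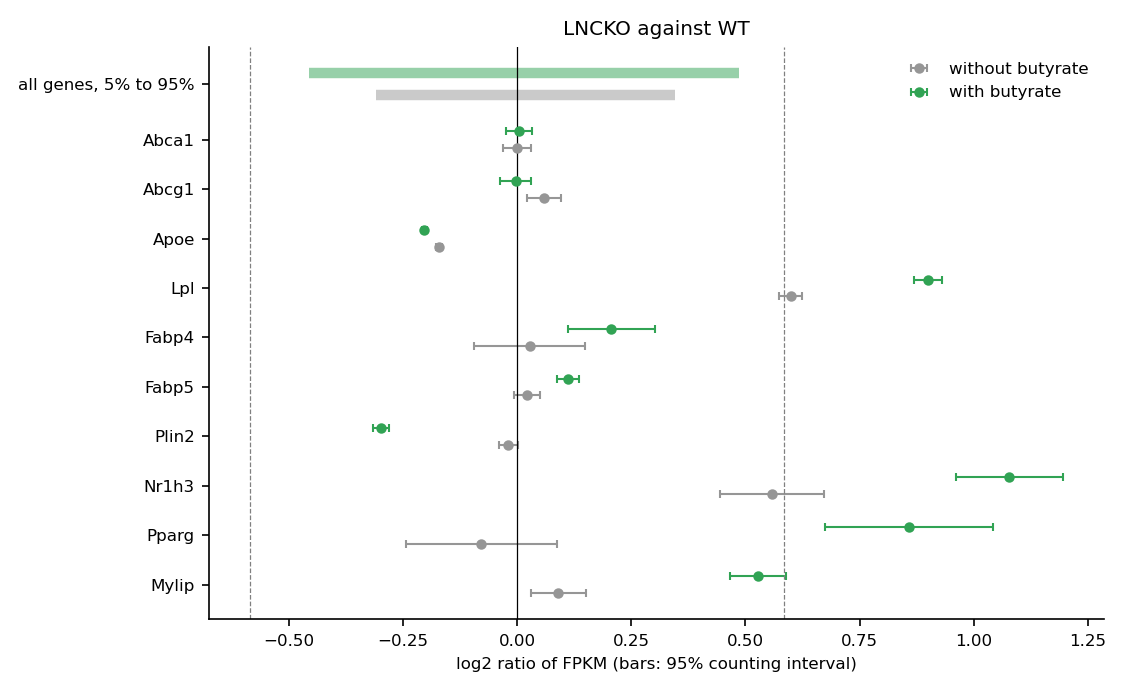
Log2 ratio of FPKM in LNCKO to WT (horizontal axis) for each of the 10 genes without butyrate (grey) and with butyrate (green), with 95% counting intervals, dashed lines at 1.5-fold and thick bars from the 5th to the 95th percentile of all genes. Lpl is beyond the upper dashed line in both treatments, Nr1h3 and Pparg with butyrate only, and Abca1 and Abcg1 lie close to 0 throughout.

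Markers of other cells also differed between the genotypes. Of 7 stromal cell markers, 5 were at least 1.5-fold lower in LNCKO than in WT without butyrate, against 1.9% of all genes. With butyrate 4 were, against 3.17%. The stromal sums were 235, 219, 70.0 and 144 fragments per 1000000. The sum of erythroid markers was 6.17, 7.03, 23.1 and 64.1. B cell markers in LNCKO had a median log2 ratio to WT of 0.02 without and 0.37 with butyrate. Endothelial markers summed to 146 to 165, most of it *Pecam1*. With butyrate, 9 of 10 macrophage markers had a lower value in LNCKO than in WT, where 39.3% of all genes did, with *Lyz2* past 1.5-fold at 3.30-fold lower, and the median of 8 neutrophil markers was -0.40. The part of these cells in the LNCKO to WT ratios of the 10 genes was not tested.

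Other genes of these pathways were read from lists. Of 13 other LXR targets, all of which were tested, 1 was at least 1.5-fold higher with butyrate in each genotype (*Apoc1* in both). Of all genes, 3.33% were in WT and 1.64% in LNCKO. Called lower were 0 of 13, against 2.92% and 0.898%. Their median log2 ratio was -0.02 in WT and -0.07 in LNCKO, close to those of all genes. *Smpdl3a*, which encodes a phosphodiesterase and was the most abundant of them per exon length, had 19.99, 16.4, 19.4 and 20.98 FPKM.

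In LNCKO, *Cd5l*, which encodes a secreted protein of macrophages, was 2.96-fold higher than in WT without butyrate and 3.06-fold higher with it, with 2.37, 2.24, 7.01 and 6.85 FPKM. *Pltp*, encoding the phospholipid transfer protein, had 13.5, 15.9, 9.13 and 10.2 FPKM and was 1.48-fold lower without and 1.56-fold lower with butyrate. Counted over the list, 1 of 13 was called higher and 0 lower without butyrate, against 1.58% and 1.9% of all genes. With butyrate, 1 was called higher and 2 (*Apoc1* and *Pltp*) lower, against 3.32% and 3.17%. The median LNCKO to WT log2 ratio of these LXR targets was 0.08 without and 0.02 with butyrate, beside 0.56 and 1.08 for *Nr1h3*.

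Of 12 other PPAR targets, 11 were listed and 10 tested, and 0 of these 10 were past 1.5-fold with butyrate in either genotype. In LNCKO without butyrate, 2 of 10 were called higher than in WT (*Cd36* and *Hilpda*), against 1.58% of all genes. With butyrate, 3 of 10 were (these and *Fabp3*), against 3.32%. In both treatments 0 of 10 were called lower, against 1.9% without and 3.17% with butyrate. *Cd36*, a scavenger receptor that takes up fatty acids, had 1.25, 0.959, 1.90 and 1.53 FPKM, which was the order of the libraries of *Lpl*. *Hilpda*, an inhibitor of lipid droplet breakdown, had 216, 328, 372 and 633 fragments, higher with butyrate and in LNCKO. *Fabp3*, another carrier, had 218, 174, 198 and 350 fragments, and was 1.82-fold higher in LNCKO with butyrate. *Acadl*, an enzyme of fatty acid oxidation and the most abundant of the list, varied between 5.27 and 5.87 FPKM.

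Of the partner receptors and cofactors, 10 of 12 were tested. *Ppargc1b*, a coactivator, was the single one past 1.5-fold, higher with butyrate in WT and in LNCKO without butyrate, with 93, 192, 180 and 157 fragments. *Nr1h2*, which encodes LXR beta and was the most abundant of the list, was nearly constant at 20.4, 19.6, 20.8 and 20.8 FPKM, in contrast to *Nr1h3*.

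Genes of cholesterol and triglyceride handling were all 13 tested, and *Lipa*, the lysosomal lipase that frees cholesterol from LDL, was the one past 1.5-fold. It had 12.6, 7.90, 14.4 and 13.9 FPKM, with WT butyrate apart from the other 3 libraries as for *Mylip*. With butyrate, *Lipa* was 1.60-fold lower than control in WT, and LNCKO exceeded WT by 1.75-fold. *Npc2*, which passes that cholesterol out of the lysosome and was the most abundant of the list, varied between 85.8 and 99.9 FPKM. Among lipoprotein receptors, 6 of 7 were tested, 0 were past 1.5-fold with butyrate, and *Cd36* was called in LNCKO in both treatments. *Msr1*, the class A scavenger receptor, had 3.22, 3.09, 4.15 and 3.76 FPKM.

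SREBP2 is activated when cholesterol is low and induces cholesterol synthesis and uptake. With butyrate, the SREBP2 targets tested were all within the 5th to the 95th percentile of all genes. All 8 tested of 9 were below 0 in both genotypes, as were 60.8% of all genes in WT and 57.9% in LNCKO, with median log2 ratios of -0.21 in WT and -0.18 in LNCKO, where those of all genes were -0.06 and -0.02. None reached 1.5-fold. *Srebf2*, which encodes the factor itself and was the most abundant of the list, had 3.80, 3.53, 3.99 and 3.42 FPKM, or log2 ratios of -0.11 in WT and -0.22 in LNCKO.

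**Figure D4:**
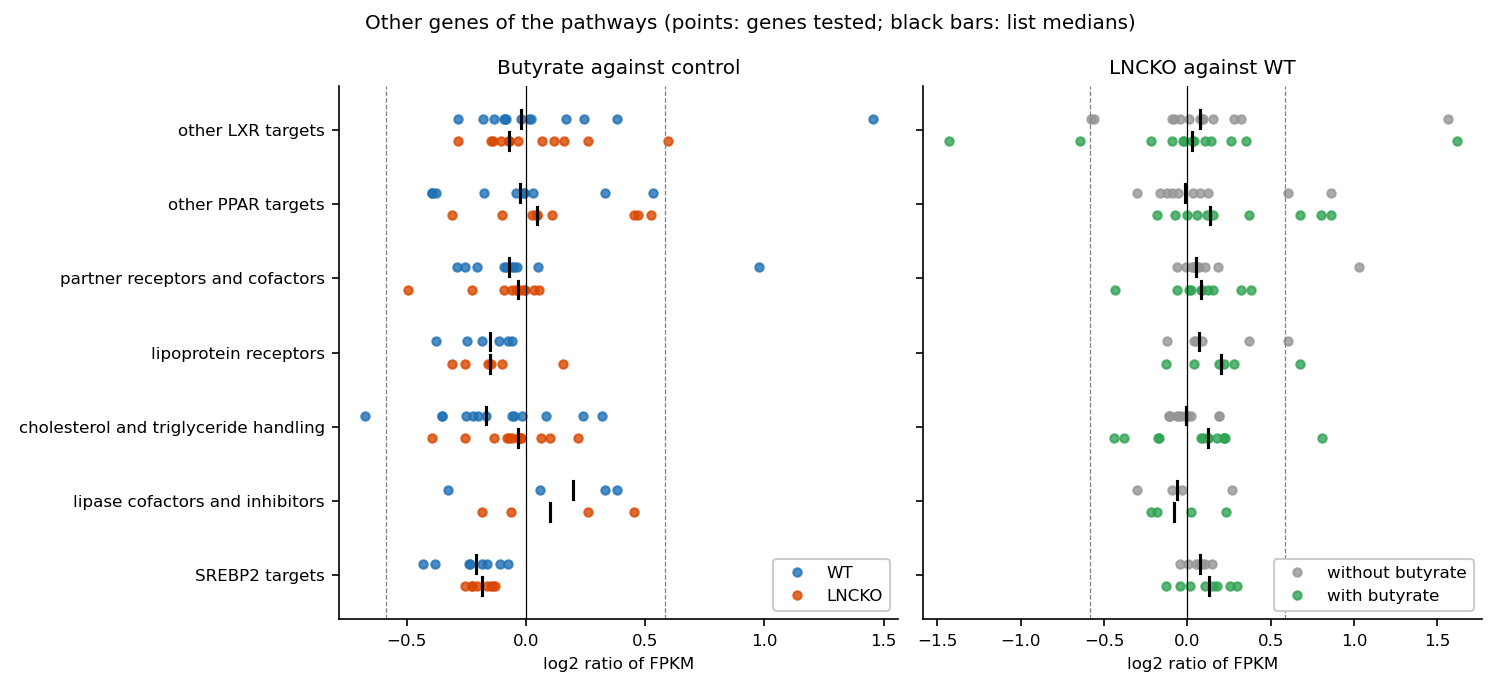
Log2 ratios of FPKM for the other genes of 7 pathway lists (1 point per gene tested, black bars for list medians), for butyrate against control in WT and LNCKO on the left and for LNCKO against WT without and with butyrate on the right. Dashed lines mark 1.5-fold. The points of the SREBP2 targets all lie left of 0 with butyrate in both genotypes, and the isolated points of the LXR targets are Apoc1 and Cd5l.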

How the data were processed

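The authors deposited FPKM values per gene for 4 RNA libraries of bone marrow-derived macrophages, 1 per group, and no counts were used. The submitters' processing notes name GRCm38/mm10, STAR 2.5.0c, Picard 1.126, bedtools 2.17.0, HTSeq 0.6.0 and DESeq2 3.0, with no roles. The labels name Illumina protocols, whereas the methods name an MGISEQ platform, and which was used was not settled. In the deposited FPKM, fragments were divided by the whole genomic span of the gene, introns included.

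Fragments were recovered as FPKM multiplied by the span (GENCODE M21) and by the library total that made most values whole within 0.05, which held for 98.6% of the genes. Changes were plain log2 ratios of FPKM without a pseudocount, since a fixed one would shrink genes with long introns more. Levels between genes were fragments per kilobase of exons of coding transcripts per 1000000 fragments. Intervals were Clopper-Pearson at 95%, except those of differences between log2 ratios, which used a normal approximation. Steps were tested on simulated data. Groups followed the sample titles, and the LNCKO library names do not spell their conditions. The named genes were all 10 members and, of each pathway list, up to 4 genes past 1.5-fold and the most abundant one. Genes named besides these, such as *Gpihbp1*, *Tomm40*, *Myef2l* and cell type markers, were chosen for their role or position. The members, lists and thresholds were chosen with earlier results of these data known. Promoters were taken from RefSeq on GRCm38.p6. Computations ran in Python 3.11.15 with pandas 2.3.3, scipy 1.17.1 and numpy 2.4.6, and matplotlib 3.10.9 drew the plots.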

Additional observations from a re-analysis of the deposited data

Results flagged for a closer look

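*Nr1h3* and *Mylip* differed in direction between the genotypes, with counting intervals of both changes that leave out 0. The log2 ratio of *Nr1h3* in butyrate to control was -0.42 in WT and 0.1 in LNCKO, and that of *Mylip* was -0.37 in WT and 0.07 in LNCKO. The counting intervals of the LNCKO ratios reached down to 0.007 and 0.009. With FPKM rescaled to the same sum, the LNCKO ratios were 0.08 (-0.02 to 0.18) and 0.04 (-0.01 to 0.10). These ratios stayed above 0 but their intervals then held 0. Whether the LNCKO changes exceed counting error thus depends on the scaling. With 1 library per group, the difference was not tested for either gene.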

How the results depend on the processing

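No paired analysis was possible because no result comes from a test and each group has 1 library. A pseudocount of 1 left 1 of the 10 genes past 1.5-fold for butyrate in WT, 0 for butyrate in LNCKO, 0 for LNCKO against WT without butyrate and 1 with it, since it shrinks the changes of genes with low FPKM such as *Pparg*. A pseudocount of 0.1 left 1 for butyrate in WT. Of 9 genes with a mean of at least 1000 fragments, or a mean FPKM of at least 1, 1 was past 1.5-fold for butyrate in WT (*Lpl*), *Pparg* being left out by both filters. Scaling the libraries by the median ratio of all genes left 0 without butyrate for LNCKO against WT, where *Lpl* was at 0.58 on the log2 scale. At 2-fold the counts were 0, 0, 0 and 1 in the 4 comparisons in the order above, against 192, 105, 134 and 218 of all 11250 genes. At 1.3-fold they were 5, 3, 2 and 4, against 1700, 719, 882 and 1668 of all 11250 genes.

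Over 160 recomputed log2 ratios of the 10 genes, no called change reversed, 117 stayed within their counting interval and 43 left it. The 2 sign changes were of *Abca1* and *Abcg1* in LNCKO against WT with butyrate, both near 0. The difference in butyrate change between the genotypes went from -0.004 to 0.03 for *Abca1* with median scaling and from 0.03 to -0.0005 for *Apoe* with FPKM rescaled to the same sum. The median of the 10 genes for butyrate in WT was -0.01 with FPKM rescaled to the same sum. Counts over all genes depended on the filter, from 703 to 140 of 7880 genes for butyrate in WT with a mean of at least 1000 fragments, from 285 to 39 in LNCKO, from 392 to 58 for LNCKO against WT without butyrate and from 730 to 171 with it. With no filter these counts were 1961, 1359, 1611 and 1979 of 13535 genes, with a pseudocount of 1 they were 94, 35, 45 and 107, and with a pseudocount of 0.1 they were 332, 111, 170 and 373. A mean FPKM of at least 1 gave 171, 58, 83 and 208 of 6807 genes. Each library held at least 367 fragments of each of the 10 genes, and no biological spread was measured.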
